A study of Mus musculus with 12 samples.

Results

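Immunoglobulin variable segments, the gene pieces that encode most of the antigen-binding part of an antibody chain, were followed through RNA sequencing of mouse colon with chemically induced colitis. The members were the rows of the authors' table of 55335 genes whose symbol begins Ighv, Igkv or Iglv and whose mean over the 12 libraries was at least 1 FPKM (a count of sequenced fragments scaled to transcript length and to the size of the library). They numbered 144, with 64 of 185 heavy chain (Ighv) rows, 77 of 160 kappa (Igkv) rows and 3 of 3 lambda (Iglv) rows. The choice rests on the level itself, so the levels are a description, and a member that is high in only 1 group passes the minimum through that group.

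Colon RNA came from wild-type (WT) mice in 4 groups of 3 libraries, with TNBS or DSS colitis and thymopentin or saline treatment. TNBS (trinitrobenzene sulfonic acid) is a hapten that raises an immune reaction in the colon wall, DSS (dextran sulfate sodium) is a polymer that injures the colon epithelium, and thymopentin is a synthetic peptide taken from a thymic protein. The saline groups received normal saline in its place. All groups had colitis, and no colon without colitis was analysed here. The labels give no dose, timing, age, strain or sex. Nothing says that the libraries of a group came from separate mice, so the p-values measure the spread between these libraries, which may be technical.

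Each B cell joins 1 V segment to a J segment (with a D segment between them in the heavy chain) before it makes antibody, and its progeny keep that choice. RNA carrying a given V segment therefore follows the B cells and plasma cells that chose it, and the relative use of the segments is called the repertoire. In the gut most antibody is IgA made by plasma cells of the lamina propria, which hold far more antibody RNA than resting B cells. In whole tissue, fewer cells of a clone and less RNA per cell cannot be told apart.

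V segments arose by duplication, and many differ at few positions, so reads can be shared between copies. All 144 members were found by gene ID in GENCODE vM21 (build GRCm38), which classes 143 as V genes with a coding sequence and 1 as a V pseudogene. The median coding length of the 143 was 351 bases (338 to 394). The identity of a member to the V gene most like it had a median of 95.4%, and 74 of the 143 stood at 95% or more. None was identical to another V gene over its whole coding length. No source used here says how reads that fit several copies were counted, so the level of a single segment is uncertain to that extent.

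The coding sequences of 4 pairs of like segments show how close such copies are, and each pair holds a segment on which the results below turn. The first 300 bases of each coding sequence were taken from the GENCODE vM21 transcripts, 5′ to 3′, and capitals mark the positions at which the pair differs. The kappa segments Igkv10-96 and Igkv10-94 differ at 16 positions over the whole coding sequence, 9 of them within the bases shown (95.4% identity) and share a run of 131 bases.
Igkv10-96: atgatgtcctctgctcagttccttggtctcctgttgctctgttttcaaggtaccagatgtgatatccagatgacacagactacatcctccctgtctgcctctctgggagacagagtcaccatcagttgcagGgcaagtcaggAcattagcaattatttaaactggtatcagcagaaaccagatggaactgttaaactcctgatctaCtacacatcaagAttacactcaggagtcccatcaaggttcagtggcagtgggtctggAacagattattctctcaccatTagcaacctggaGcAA
Igkv10-94: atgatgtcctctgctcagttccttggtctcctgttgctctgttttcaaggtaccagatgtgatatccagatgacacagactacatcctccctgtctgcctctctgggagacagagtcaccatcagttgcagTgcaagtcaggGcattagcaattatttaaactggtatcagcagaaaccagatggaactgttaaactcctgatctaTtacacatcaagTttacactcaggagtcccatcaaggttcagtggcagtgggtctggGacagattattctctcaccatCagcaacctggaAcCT
The heavy chain segments Ighv1-81 and Ighv1-85 differ at 25 positions over the whole coding sequence, 24 of them within the bases shown (92.9% identity), and their longest shared run is 43 bases.
Ighv1-81: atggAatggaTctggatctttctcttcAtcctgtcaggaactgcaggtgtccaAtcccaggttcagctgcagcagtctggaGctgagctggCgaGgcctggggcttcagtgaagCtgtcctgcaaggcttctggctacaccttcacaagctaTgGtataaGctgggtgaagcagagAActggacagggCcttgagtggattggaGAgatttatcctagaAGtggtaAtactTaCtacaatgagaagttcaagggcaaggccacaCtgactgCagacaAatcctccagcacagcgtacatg
Ighv1-85: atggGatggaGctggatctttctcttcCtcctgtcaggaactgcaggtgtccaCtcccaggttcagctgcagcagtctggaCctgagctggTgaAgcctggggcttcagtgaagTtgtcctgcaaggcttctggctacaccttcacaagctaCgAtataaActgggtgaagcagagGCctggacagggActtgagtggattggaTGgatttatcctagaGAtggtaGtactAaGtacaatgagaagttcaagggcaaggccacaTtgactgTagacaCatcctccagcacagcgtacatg
The kappa segments Igkv9-120 and Igkv9-124 differ at 17 positions over the whole coding sequence, 15 of them within the bases shown (95.2% identity) and share a run of 102 bases.
Igkv9-120: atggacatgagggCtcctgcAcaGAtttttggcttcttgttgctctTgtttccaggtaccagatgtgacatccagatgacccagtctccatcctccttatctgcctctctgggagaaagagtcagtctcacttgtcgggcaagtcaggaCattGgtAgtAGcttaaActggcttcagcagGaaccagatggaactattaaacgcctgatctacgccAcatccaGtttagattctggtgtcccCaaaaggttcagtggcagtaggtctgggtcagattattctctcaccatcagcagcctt
Igkv9-124: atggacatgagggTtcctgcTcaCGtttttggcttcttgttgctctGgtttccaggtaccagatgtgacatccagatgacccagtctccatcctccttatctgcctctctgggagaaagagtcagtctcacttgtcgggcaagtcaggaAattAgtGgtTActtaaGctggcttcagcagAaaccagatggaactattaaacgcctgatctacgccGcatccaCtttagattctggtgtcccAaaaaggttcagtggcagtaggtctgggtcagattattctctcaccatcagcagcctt
The lambda segments Iglv1 and Iglv2 differ at 11 positions over the whole coding sequence, 8 of them within the bases shown (96.9% identity) and share a run of 104 bases.
Iglv1: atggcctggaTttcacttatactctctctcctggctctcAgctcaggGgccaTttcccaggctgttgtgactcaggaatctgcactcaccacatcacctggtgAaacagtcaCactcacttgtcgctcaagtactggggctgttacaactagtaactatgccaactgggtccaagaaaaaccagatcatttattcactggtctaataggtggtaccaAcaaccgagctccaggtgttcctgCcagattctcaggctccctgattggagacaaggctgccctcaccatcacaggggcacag
Iglv2: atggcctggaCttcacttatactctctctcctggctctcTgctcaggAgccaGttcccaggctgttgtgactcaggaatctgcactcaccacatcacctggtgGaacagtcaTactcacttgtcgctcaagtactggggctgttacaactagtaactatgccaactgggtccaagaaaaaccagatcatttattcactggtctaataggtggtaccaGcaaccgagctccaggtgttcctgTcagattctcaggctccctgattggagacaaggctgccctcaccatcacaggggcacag

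The summed level of all members was 1014, 1380 and 288 FPKM in TNBS saline 1, 2 and 3, and 449, 1195 and 840 in TNBS thymopentin 1, 2 and 3. It was 1899, 2539 and 1933 FPKM in the DSS saline libraries and 3278, 2797 and 2690 in the DSS thymopentin libraries. Every DSS library lay above every TNBS library, and TNBS saline 3 was the lowest of the 12. The mean was 861 ± 425 FPKM (SD, n = 6) in TNBS and 2523 ± 531 FPKM (SD, n = 6) in DSS, a ratio of 2.93. Within DSS the thymopentin libraries lay above the saline libraries without overlap, with means of 2922 ± 313 and 2124 ± 360 FPKM (SD, n = 3 each) and a ratio of 1.38. These FPKM were not rescaled. Median-ratio scaling factors over all genes were 0.92 to 0.982 in DSS saline and 1.01 to 1.06 in DSS thymopentin. Dividing by them puts DSS saline 2 above DSS thymopentin 3, so the lack of overlap depends on the scaling. Within TNBS the groups overlapped, with 828 ± 373 against 894 ± 556 FPKM (SD, n = 3 each). A sum over members chosen on their level was given no test. Some tissue markers also differed between the DSS groups. The summed level of 4 smooth muscle genes was 1480 to 1800 FPKM in DSS saline and 614 to 961 in DSS thymopentin. In limma's test 2 of the 4 were lower under thymopentin, beside 4.3% of all tested genes. Of 6 colon epithelium genes 2 were higher, beside 12.7% of all tested genes, and none was lower. Muc2, Car1 and Krt20 had negative log2 differences (-0.38, -0.49 and -0.03). The summed epithelium level overlapped, at 1540 to 1980 FPKM with saline and 1680 to 2180 with thymopentin. The part of these markers in the V levels was not tested.

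Kappa segments held the largest part of the sum in every library. Summed Igkv was 529 ± 270 FPKM in TNBS and 1856 ± 402 in DSS (SD, n = 6 each), summed Ighv was 266 ± 127 and 464 ± 129, and summed Iglv was 66.7 ± 35.2 and 203 ± 39.8. The Igkv and Iglv sums did not overlap between the models, while the Ighv sum of DSS saline 1, 272 FPKM, lay below that of 4 TNBS libraries. The lambda part of the light chain V level, Iglv as a share of Igkv plus Iglv, ranged from 6.42% in DSS thymopentin 1 to 14.1% in TNBS saline 1. Its means were 11.1% ± 2.32 in TNBS and 10.1% ± 1.90 in DSS (SD, n = 6 each), which is closer than the spread between libraries.

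**Figure D1:**
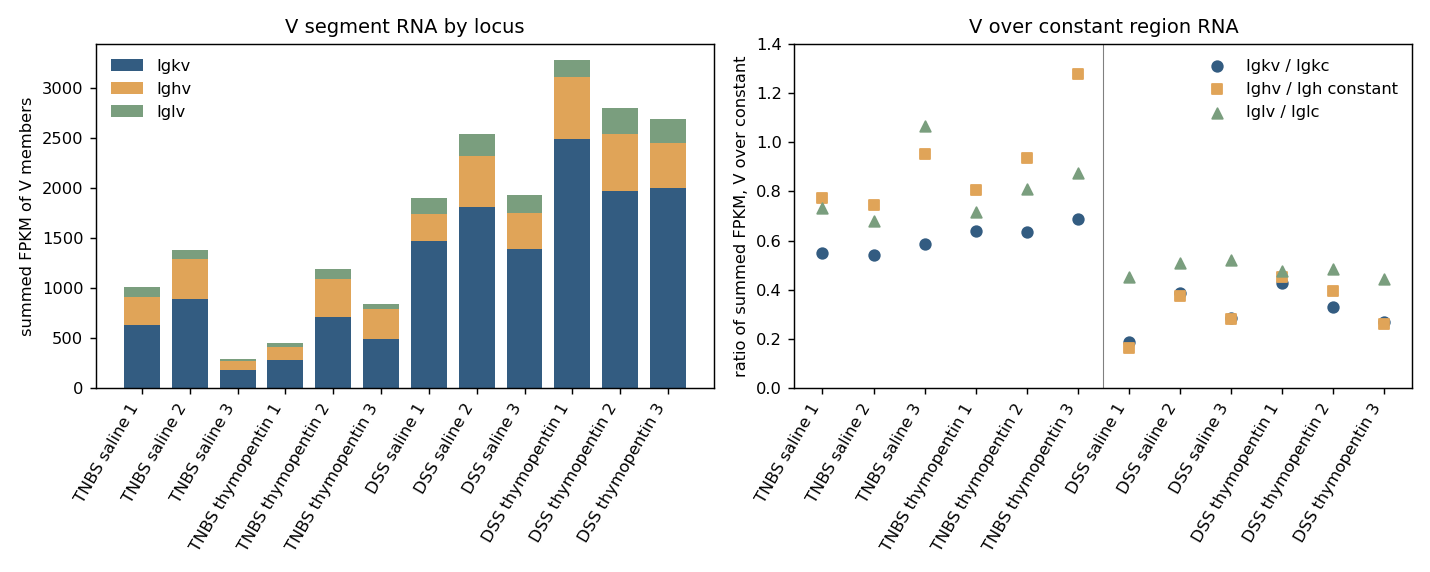
The left panel stacks the summed FPKM of Igkv, Ighv and Iglv members for each of the 12 libraries, and the right panel plots the ratio of summed V FPKM to summed constant region FPKM for the same libraries. The 6 DSS libraries reach 1899 to 3278 FPKM against 288 to 1380 in TNBS, and their V over constant ratios sit below those of the TNBS libraries at each locus.

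Constant region RNA, the other part of the same transcripts, lay further apart between the models than V segment RNA did. Igkc, the kappa constant region, was at 1142, 1651 and 299 FPKM in TNBS saline and 436, 1116 and 711 in TNBS thymopentin. It was at 7785, 4705 and 4901 FPKM in DSS saline and 5855, 5974 and 7466 in DSS thymopentin. No DSS library came near the TNBS range, and the ratio of the model means was 6.85. The ratio of summed Igkv to Igkc was 0.607 ± 0.0579 in TNBS and 0.314 ± 0.0857 in DSS (SD, n = 6 each), without overlap. Within TNBS it was 0.655 ± 0.0292 with thymopentin and 0.559 ± 0.0242 with saline (SD, n = 3 each), also without overlap. The ratio of summed Ighv to the summed heavy chain constant regions was 0.915 ± 0.197 and 0.321 ± 0.105, again without overlap. Summed Iglv over summed Iglc was 0.813 ± 0.144 and 0.481 ± 0.0301, also without overlap.

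Igha, the constant region of IgA, made up 64.3% to 95.4% of the heavy chain constant level. Of 11 tested constant region genes 8 were higher in DSS saline than in TNBS saline in limma's moderated test on log2(FPKM + 1), and 7 were higher in DSS thymopentin than in TNBS thymopentin, with none lower in either. Ighg2c is an IgG2 constant region that only some inbred mouse strains carry. It lay between 0.0638 and 2.01 FPKM in the 6 TNBS libraries and between 114 and 265 FPKM in the 6 DSS libraries. The log2 difference under saline was 7.39 (SE 0.31, limma adjusted p = 1.39e-06). Of 2 other genes known to differ between strains, Nnt passed the test in no comparison. It was at 0.477 to 1.84 FPKM in TNBS saline and 0.664 to 1.01 in TNBS thymopentin. In DSS it was at 3.54 to 4.15 FPKM with saline and 0.183 to 5.0 with thymopentin. H2-Ea-ps was at 0 in the 6 TNBS libraries and reached at most 0.054 FPKM in DSS. Strains can also differ in their V segments. The labels do not name the strain, and its part in the differences between the models was not tested.

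Markers of other cells moved with the models or with single libraries. Of 8 tested T cell genes 7 were higher in DSS in both model comparisons, and their summed level was 6.22 to 27.5 FPKM in TNBS saline, 2.63 to 12.9 in TNBS thymopentin, 73.2 to 96.2 in DSS saline and 48.6 to 73.2 in DSS thymopentin. Of 12 tested plasma cell genes 2 were higher and 4 lower in DSS saline than in TNBS saline. Between DSS thymopentin and TNBS thymopentin 3 were higher and 1 lower in DSS. With thymopentin against saline, 3 were higher and 1 lower in DSS, beside 12.7% and 4.3% of all tested genes. In TNBS 1 was lower, beside 0.384% of all tested genes. Of 13 tested B cell markers none passed the test in any comparison. Their sum ran from 3.08 to 169 FPKM in TNBS saline, 2.85 to 107 in TNBS thymopentin, 24.2 to 148 in DSS saline and 21.1 to 136 in DSS thymopentin. The lowest library was replicate 3 in both TNBS groups and in DSS saline, and replicate 1 in DSS thymopentin. Rag2, a part of the complex that cuts the segments during joining in B cell precursors, was listed at 0 in all 12 libraries. Of the same list of 7 early B genes, Vpreb3 was at 0 to 5.18 FPKM and Vpreb1 at 0.0983 to 0.598 FPKM. The others, Dntt, Igll1, Rag1 and Vpreb2, had means of 0.0107 FPKM or less. Of 6 colon epithelium genes 4 were lower in DSS in both model comparisons, with a summed level of 3090 to 5750 FPKM in TNBS and 1540 to 2180 in DSS. Of the 4 smooth muscle genes 3 were higher in DSS under saline and none passed the test under thymopentin. The part of any of these cells in the V levels was not tested.

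Across the 12 libraries the Spearman correlation with the summed V level was spread widely over the plasma cell list, as a description with no test. Over its 13 genes the correlation ran from -0.629 to 0.944 with a median of 0.678, and 5 were negative. The highest were Derl3 (0.944), Tnfrsf17 (0.923, a survival receptor of plasma cells), Slamf7 (0.916) and Mzb1 (0.895, a plasma cell chaperone). The negative ones were Sdc1 (-0.629), Fkbp11 (-0.427), Xbp1 (-0.371), Txndc5 (-0.259) and Prdm1 (-0.077). The correlation was 0.888 for Igha and 0.853 for Igkc. Over the 13 B cell genes it ran from 0.217 to 0.469 with a median of 0.336, and it was 0.427 for Ms4a1, the B cell surface protein CD20, and 0.413 for Cd79a, a part of the B cell receptor. DSS thymopentin 1, the library with the highest V sum, had the lowest summed B cell markers of the DSS libraries, 21.1 FPKM. Outside the immunoglobulin loci the 5 closest genes by Spearman correlation over the 12 libraries, with ties broken by Pearson's r, were Gm27597 (0.951), Oas1c (0.951), Gm5547 (0.944), Tpt1 (0.944) and Rps12-ps3 (0.937). The split of the libraries by model is shared by all of these correlations.

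Within a locus, use was described by each segment's share of the summed FPKM of that locus. Evenness was given as the effective number of segments, the exponential of the Shannon entropy of these shares, which is the number of equally used segments that would give the same entropy. Of the 64 Ighv members the effective number ranged from 22.4 to 40.5, and of the 77 Igkv members from 21.3 to 48.5. Both lowest values belonged to TNBS thymopentin 2. For Ighv the means were 32.9 ± 0.739 in TNBS saline, 32.3 ± 8.74 in TNBS thymopentin, 35.6 ± 3.43 in DSS saline and 37.2 ± 5.36 in DSS thymopentin (SD, n = 3 each). For Igkv they were 38.6 ± 5.94, 35.8 ± 12.7, 39.3 ± 2.55 and 44.3 ± 5.88. The means of any pair of groups differed by less than the larger of their SDs at both loci.

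TNBS thymopentin 2 stood apart from the other 11 libraries, with few segments holding most of its V level. Ighv3-5 held 17.1% of its Ighv level, Ighv1-54 14.5% and Ighv1-74 13.2%. In kappa, Igkv1-117 held 18.7%, Igkv10-96 15.2% and Igkv6-17 13.9%. At either locus 4 segments made up 50% of the level, where the other 11 libraries needed 8 to 12 for Ighv and 9 to 13 for Igkv. Ighv3-5 was at 66.1 FPKM there and at 0 to 2.08 FPKM in the other 11 libraries. Ighv1-54 was at 55.9 FPKM there and at 0.276 to 9.54 FPKM elsewhere, and Igkv6-17 was at 98.8 FPKM there, with the next highest level 60.9 FPKM in DSS thymopentin 2.

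Other TNBS libraries also had leading segments of their own. Ighv7-3 led TNBS saline 1 with 17.9% of Ighv (51.2 FPKM), and it was at 21.1 and 4.32 FPKM in TNBS saline 2 and 3. Ighv10-3 led TNBS saline 2 with 14.3% (56.9 FPKM), and it was at 4.94 and 1.47 FPKM in the other TNBS saline libraries. Ighv1-55 led TNBS saline 3 with 7.26%, and Ighv1-64 led TNBS thymopentin 1 and 3 with 8.87% and 8.69%. The leading Ighv segment was thus a different one in each of the TNBS saline libraries.

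In DSS the leading heavy chain segment was Ighv1-26 in all 6 libraries. It was at 38.1, 72.1 and 37.8 FPKM in DSS saline and 105, 39.0 and 37.2 FPKM in DSS thymopentin. In TNBS it was at 20.8, 21.9 and 5.56 FPKM with saline and 7.67, 34.6 and 25.5 FPKM with thymopentin, below every DSS library. Its share of Ighv was 6.82% to 17.1% in DSS and 5.48% to 8.95% in TNBS, so the shares overlapped. Under saline its log2 difference between DSS and TNBS was 1.69 (SE 0.64, limma adjusted p = 0.0494), a call that was lost under 11 of 19 alternatives, and under thymopentin it was 1.44 (SE 0.64, limma adjusted p = 0.116).

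The leading kappa segments were Igkv9-120 in TNBS saline 1 and 2, Igkv1-117 in TNBS saline 3 and TNBS thymopentin 1 and 2, and Igkv1-110 in TNBS thymopentin 3. In DSS they were Igkv17-121 in DSS saline 1 and DSS thymopentin 2, Igkv10-96 in DSS saline 2 and 3, and Igkv10-94 in DSS thymopentin 1 and 3. No segment led a library of both models. Igkv1-117 was at 33.6, 87.2 and 18.3 FPKM in TNBS saline, 26.5, 133 and 16.8 in TNBS thymopentin, 73.2, 57.8 and 45.4 in DSS saline and 62.7, 73.6 and 72.6 in DSS thymopentin. Its levels overlapped between the models. Igkv1-110 was at 7.62 to 44.0 FPKM in TNBS and 33.7 to 60.4 in DSS, also with overlap.

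**Figure D2:**
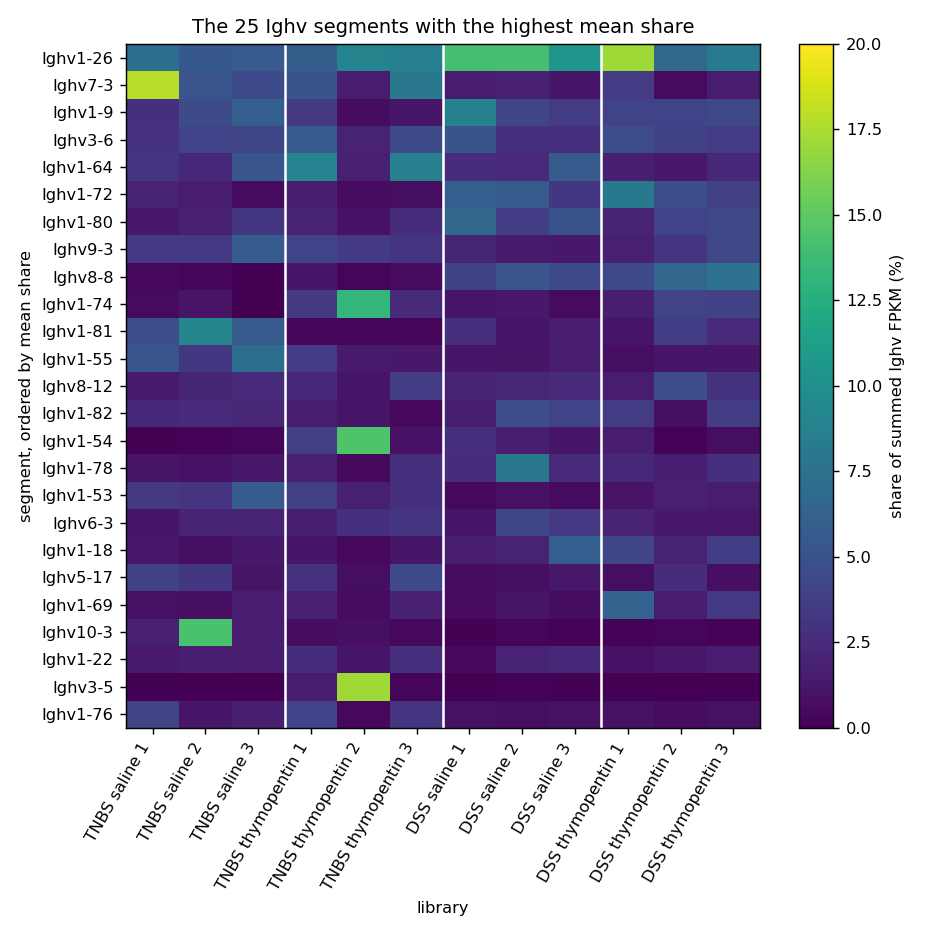
Colour gives the share of summed Ighv FPKM, in percent, of the 25 Ighv segments with the highest mean share (rows) in the 12 libraries (columns, white lines between groups). Ighv1-26 is bright across the DSS libraries, at 6.82% to 17.1%, while Ighv3-5, Ighv1-54 and Ighv1-74 are bright in TNBS thymopentin 2 and Ighv1-81 in the TNBS saline libraries.

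**Figure D3:**
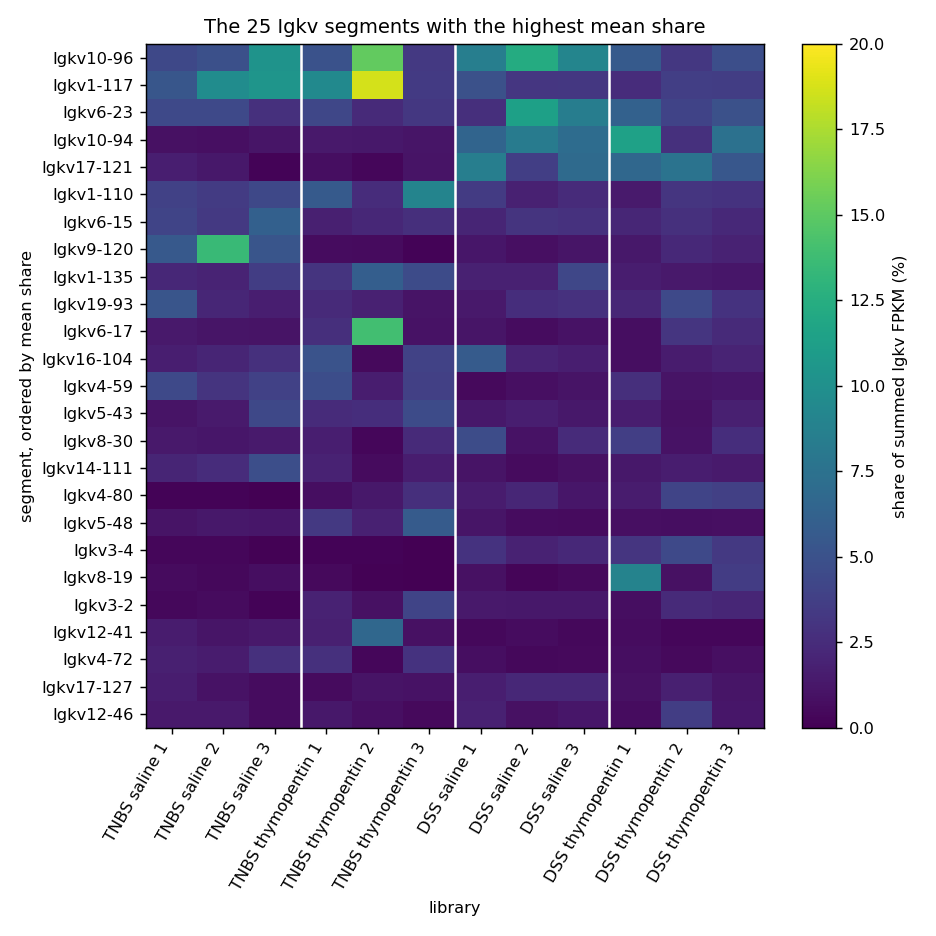
Colour gives the share of summed Igkv FPKM, in percent, of the 25 Igkv segments with the highest mean share (rows) in the 12 libraries (columns, white lines between groups). Igkv10-94, Igkv17-121 and Igkv3-4 are brighter in the DSS columns, Igkv9-120 in the TNBS saline columns, and Igkv1-117, Igkv10-96 and Igkv6-17 hold 18.7%, 15.2% and 13.9% of TNBS thymopentin 2.

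Lambda use rested on 1 segment. Iglv1 had the highest mean of all 144 members, 121 FPKM, and held 82.7% to 92.8% of the Iglv level in every library. It was at 93.2, 75.4 and 14.5 FPKM in TNBS saline, 33.8, 83.1 and 50.5 in TNBS thymopentin, 140, 198 and 165 in DSS saline and 142, 238 and 220 in DSS thymopentin. All DSS libraries lay above all TNBS libraries. The log2 difference between DSS and TNBS was 1.80 under saline (SE 0.58, limma adjusted p = 0.0278) and 1.88 under thymopentin (SE 0.58, limma adjusted p = 0.0367). Iglv2, whose sequence stands beside that of Iglv1 above, was at 0.983 to 6.14 FPKM in TNBS and 8.38 to 16.2 FPKM in DSS, with log2 differences of 1.28 (SE 0.45, limma adjusted p = 0.0396) and 1.48 (SE 0.45, limma adjusted p = 0.0353). Iglv3 lay at 0.415 to 10.9 FPKM in the TNBS libraries and 4.38 to 13.4 in the DSS libraries and passed the test in neither comparison. The Iglv1 and Iglv2 calls were lost when some single libraries were left out, with adjusted p of limma's test up to 0.0738 and 0.115 under saline and up to 0.111 and 0.106 under thymopentin. Leaving out any 1 DSS saline library ended both calls under saline. Leaving out replicate 1 or 3 of TNBS thymopentin, or replicate 2 or 3 of DSS thymopentin, ended both calls under thymopentin, as did DSS saline 3 for Iglv1 and DSS thymopentin 1 for Iglv2. The Iglv2 call under saline also ended without TNBS saline 3, TNBS thymopentin 3 or DSS thymopentin 2. Other processing ended some calls too. Under saline the Iglv1 call was lost with array weights, and the Iglv2 call with array weights or a pseudocount of 0.1. Under thymopentin the Iglv1 call was lost with quantile normalization and the Iglv2 call with a pseudocount of 0.1.

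Whole profiles of use were compared between libraries by the Bray-Curtis dissimilarity of shares, which is 0 for the same use and 1 for no segment in common. For Ighv the median was 0.278 between libraries of a group (12 pairs), 0.335 between the groups of a model (18 pairs) and 0.436 between models (36 pairs). For Igkv the medians were 0.267, 0.321 and 0.465. The ranges overlapped, with 0.179 to 0.504 within groups and 0.361 to 0.573 between models for Ighv, and the highest value within a group belonged to TNBS thymopentin 2. The library most like each library came from the same model in 12 of 12 cases at both loci. It came from the same group in 11 of 12 cases for Ighv and 12 of 12 for Igkv, and the exception was DSS thymopentin 1, whose Ighv use was nearest to that of DSS saline 2 (0.247). These are values over pairs that share libraries, and no test was made of them.

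**Figure D4:**
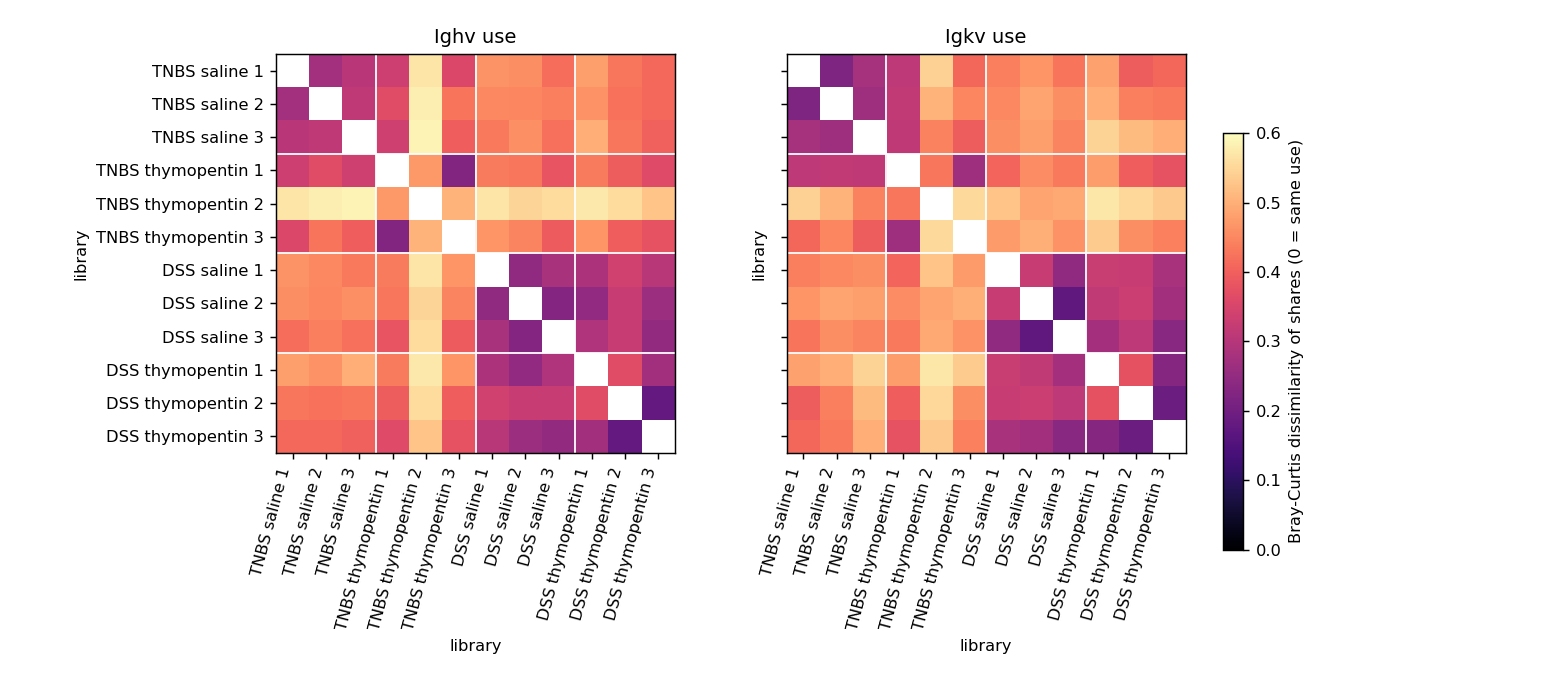
Each cell gives the Bray-Curtis dissimilarity of segment shares between a pair of the 12 libraries, for Ighv on the left and Igkv on the right (0, black, means the same use, each library against itself is left white, and white lines part the groups). The DSS block is dark, TNBS thymopentin 2 forms a pale row and column in both panels, and the median between models is 0.436 for Ighv and 0.465 for Igkv.

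Segments of like sequence are numbered as families, such as Ighv1 for the large J558 family. Ighv1 had 35 of the 64 heavy chain members and held 52.5% to 63.1% of the Ighv level in TNBS and 61.9% to 72.2% in DSS, with a small overlap. Ighv8 (2 members) held 1.49% to 4.19% in TNBS and 5.81% to 11.4% in DSS, and Ighv10 (2 members) held 2.30% to 15.0% in TNBS and 0.384% to 2.17% in DSS, both without overlap. In kappa, Igkv1 (5 members) held 12% to 27.3% in TNBS and 6.0% to 11% in DSS. Igkv17 (2 members) held 0.914% to 3.29% in TNBS and 5.90% to 10.3% in DSS. Of 29 families 6 did not overlap between the models, the others being Igkv2, higher in TNBS, and Igkv15, higher in DSS.

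Heavy chain use also differed along the locus. The 185 Ighv rows were ordered by distance from the J segments in the GENCODE annotation and parted into 3 runs of 61 or 62 rows. The run nearest to J, with 21 members, held 25.6% to 38.3% of the Ighv level in TNBS and 17.2% to 19.5% in DSS, without overlap. The run farthest from J, with 26 members, held 35.9% to 45.8% in TNBS and 42.9% to 48.9% in DSS. In kappa the run nearest to J held 30.5% to 44.8% in TNBS and 38.6% to 47.4% in DSS, so the models overlapped.

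Each member was then tested in a model over all 13794 genes with a mean of at least 1 FPKM, and a member was called at a Benjamini-Hochberg adjusted p under 0.05. Between DSS saline and TNBS saline 56 of the 144 members were called (38.9%), where 46.6% of all tested genes were. Of these, 53 members (36.8% of the 144) were higher in DSS, where 15.2% of all tested genes were called higher. Only 3 members (2.08%) were lower in DSS, where 31.5% of all tested genes were. Members whose groups did not overlap numbered 62 higher in DSS saline (background 18.8%) and 3 lower (background 37.7%), and under thymopentin 80 higher (background 18.7%) and 3 lower (background 27.6%). The median log2 difference under saline was 0.47 over Ighv, 1.29 over Igkv and 0.93 over all members, beside -0.14 over all tested genes. Between DSS thymopentin and TNBS thymopentin 66 members were called (45.8%, background 27.5%), of which 65 were higher (45.1%, background 11%) and 1 was lower (background 16.5%), with a median of 1.39 beside -0.05 over all tested genes. Of the members 18 had a mean under 1 FPKM in both TNBS groups and 5 in both DSS groups, and these passed the minimum through the other model.

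The kappa segments Igkv12-89 and Igkv3-4 and the heavy chain segment Ighv8-8 were low in all 6 TNBS libraries and high in all 6 DSS libraries. Igkv12-89 was at 0.943, 1.13 and 0.261 FPKM in TNBS saline and 0.204, 0.431 and 0 in TNBS thymopentin, against 13.4, 28.9 and 22.9 in DSS saline and 33.1, 88.1 and 56.6 in DSS thymopentin. The models did not overlap, and neither did the DSS groups, while the TNBS groups did. Its mean was under 1 FPKM in both TNBS groups, so it passed the minimum through DSS alone and the difference between the models is a description. The V gene most like it in sequence, Igkv12-46, is 84.4% identical.

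Igkv3-4 was at 2.01, 3.22 and 0.174 FPKM in TNBS saline, 0.516, 1.2 and 0 in TNBS thymopentin, 43.3, 35.3 and 31.6 in DSS saline and 77.2, 87.1 and 65.7 in DSS thymopentin. Its log2 difference between the models was 3.92 under saline (SE 0.42) and 5.69 under thymopentin (SE 0.42), with limma adjusted p of 0.000103 and 3.4e-05. Ighv8-8 was at 0 to 1.85 FPKM in the 6 TNBS libraries and 10.5 to 37.8 FPKM in the 6 DSS libraries, with log2 differences of 3.37 and 3.67 (SE 0.35 each, limma adjusted p = 9.5e-05 and 0.000175). For all 3 segments the lowest DSS library lay above the highest TNBS library.

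The pair Igkv10-96 and Igkv10-94, printed above, differed in how far the models lay apart. Igkv10-94 was at 5.85, 7.28 and 1.94 FPKM in TNBS saline, 3.76, 9.26 and 5.65 in TNBS thymopentin, 94.8, 151 and 98.2 in DSS saline and 285, 55.1 and 149 in DSS thymopentin. Igkv10-96 was at 27.1, 43.6 and 18.0 FPKM in TNBS saline, 14.0, 108 and 16.4 in TNBS thymopentin, 125, 224 and 127 in DSS saline and 141, 63.5 and 96.7 in DSS thymopentin. The models did not overlap for Igkv10-94 and overlapped for Igkv10-96 through TNBS thymopentin 2. The log2 difference under saline was 4.36 for Igkv10-94 (SE 0.56, limma adjusted p = 0.000249) and 2.41 for Igkv10-96 (SE 0.67, limma adjusted p = 0.0131). Under thymopentin it was 4.29 (SE 0.56, limma adjusted p = 0.000937) and 1.66 (SE 0.67, limma adjusted p = 0.0869). The difference between the segments was not tested.

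Igkv17-121 was at 0.372 to 11.7 FPKM in TNBS and 67.4 to 166 FPKM in DSS, with log2 differences of 4.01 under saline and 5.08 under thymopentin (SE 0.70 each, limma adjusted p = 0.00119 and 0.00126). Igkv3-9 was at 1.75, 1.06 and 0.422 FPKM in TNBS saline, at 0 in all 3 TNBS thymopentin libraries and at 5.0 to 21.9 FPKM in DSS. Igkv6-23 was at 4.81 to 39.1 FPKM in TNBS and 39.3 to 206 FPKM in DSS. The lowest DSS library, DSS saline 1, lay just above the highest TNBS library.

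Few segments were higher in TNBS. Lower in DSS saline than in TNBS saline were Ighv1-53 (log2 difference -1.49, SE 0.35) and Ighv1-55 (-1.07, SE 0.26), with limma adjusted p of 0.00591 and 0.00702. The other called member, Ighv1-77, passed the minimum through TNBS saline alone, so its values are a description. It was at 4.60, 13.3 and 1.65 FPKM in TNBS saline and at 0 to 0.903 FPKM in the other 9 libraries. Igkv2-116, the 1 member lower in DSS under thymopentin, is the member that GENCODE classes as a V pseudogene. It passed the minimum through the TNBS groups alone and is described in the same way. It was at 1.52, 6.27 and 9.89 FPKM in TNBS thymopentin and at 0 to 0.0804 FPKM in DSS thymopentin.

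Within each model the thymopentin libraries were set against the saline libraries. In TNBS 2 of the 144 members were called (1.39%), where 0.667% of all tested genes were (0.283% higher and 0.384% lower). An unadjusted limma p under 0.05 was reached by 29 of the 144 members and by 1748 of the 13794 tested genes. Members whose groups did not overlap numbered 10 higher (6.94%, background 12.1%) and 12 lower (8.33%, background 6.75%) with thymopentin. The median log2 difference was -0.07 over the members and 0.03 over all tested genes. The 2 calls are too few to set against the background.

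Ighv1-81, a heavy chain segment of the Ighv1 family, was lower with thymopentin in TNBS. It was at 13.6, 36.3 and 5.49 FPKM in TNBS saline and at 0.305, 1.0 and 0.849 FPKM in TNBS thymopentin, while DSS saline held 7.26, 5.87 and 5.94 FPKM and DSS thymopentin 7.06, 21.1 and 11.2 FPKM. Only the TNBS thymopentin libraries were near or below 1 FPKM, and the TNBS groups did not overlap. Its share of Ighv was 4.76%, 9.10% and 5.68% in TNBS saline and 0.236% to 0.286% in TNBS thymopentin. The log2 difference was -3.17 (SE 0.54, limma adjusted p = 0.0307), and with the replicate number as a block the limma adjusted p was 0.0552. The authors' deposited table lists it with 205, 470 and 86 reads in TNBS saline against 5, 14 and 12 with thymopentin, recovered as described under processing, and an FDR of 4.3e-10. Ighv1-85, whose sequence stands beside it above, was at 0 to 1.67 FPKM in the 6 TNBS libraries.

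Ighv1-52 rose with thymopentin in TNBS. It was at 0.423, 0.599 and 0.286 FPKM in TNBS saline and 2.05, 3.13 and 5.56 FPKM in TNBS thymopentin, without overlap, and at 3.0 to 4.47 FPKM in DSS saline and 5.40 to 10.2 FPKM in DSS thymopentin. The log2 difference in TNBS was 1.61 (SE 0.28, limma adjusted p = 0.0317). In the authors' deposited table it has 7, 8 and 5 reads in TNBS saline against 30, 43 and 78. The V gene most like it, Ighv1-61, differs at 5 positions (98.6% identity) and was at 0.164 to 0.787 FPKM in TNBS saline and 0.608 to 3.68 FPKM in TNBS thymopentin. No member was called in TNBS when TNBS saline 1, TNBS thymopentin 2, TNBS thymopentin 3 or DSS saline 3 was left out, while 10 were called without TNBS saline 3 and 4 without TNBS saline 2.

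Igkv9-120 had a pattern like that of Ighv1-81. It was at 35.1, 121 and 9.24 FPKM in TNBS saline and at 1.79, 3.90 and 1.02 FPKM in TNBS thymopentin, with 15.1 to 17.4 FPKM in DSS saline and 31.7 to 45.1 FPKM in DSS thymopentin. The groups of a model did not overlap in either model. Its share of Igkv was 5.62%, 13.6% and 5.28% in TNBS saline and 0.641%, 0.550% and 0.208% in TNBS thymopentin. The log2 difference in TNBS was -3.56 (SE 0.69) with a limma adjusted p of 0.0517, and 0.026 with the replicate number as a block. Igkv9-124, printed beside it above, was at 4.55, 8.46 and 1.21 FPKM in TNBS saline and 0.888, 0.873 and 1.52 FPKM in TNBS thymopentin, where the groups overlapped. The authors' deposited table lists 35 members in TNBS, 12 higher and 23 lower with thymopentin, and 16 of these have an FDR under 0.05. It holds 1173 selected genes, and how many of those reach that FDR was not counted.

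In DSS 12 members were called (8.33%), 10 higher and 2 lower with thymopentin, where 17% of all tested genes were called, 12.7% higher and 4.3% lower. The share of members called was thus below that of all genes. Members whose groups did not overlap numbered 31 higher (21.5%, background 28.3%) and 4 lower (2.78%, background 11.5%). The median log2 difference was 0.32 over Ighv, 0.45 over Igkv and 0.38 over all members, beside 0.12 over all tested genes. A positive difference was found in 106 of 144 members and in 9112 of 13794 tested genes, so most genes of the table also rose. The 12 calls depended on single libraries, with 0 members called without DSS saline 3, 2 without DSS thymopentin 3, 4 without DSS thymopentin 2 and 7 without DSS saline 1. DSS saline 3 and DSS thymopentin 1 were the libraries with the lowest B cell markers in DSS, and the part of these markers was not tested.

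Igkv8-18 was listed above 0 only in DSS thymopentin, at 34.4, 0.963 and 13.4 FPKM, and was listed at 0 in the other 9 libraries. The authors' deposited table gives 519, 13 and 213 reads for it in DSS thymopentin and 0 in each DSS saline library. The kappa segment Igkv8-19, of the same family, was at 223, 17.9 and 71.0 FPKM in DSS thymopentin and 13.1, 5.57 and 6.70 FPKM in DSS saline, and at 0.240 to 3.74 FPKM in TNBS. Both segments were highest in DSS thymopentin 1 and lowest of their group in DSS thymopentin 2. The log2 difference of Igkv8-19 was 2.91 (SE 0.73, limma adjusted p = 0.0241). Igkv8-18 passed the minimum through DSS thymopentin alone, the group in which it is high, so its values are a description.

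Igkv4-58 was at 0.837, 2.99 and 1.72 FPKM in DSS saline and 7.66, 46.7 and 16.6 FPKM in DSS thymopentin, a log2 difference of 2.84 (SE 0.69, limma adjusted p = 0.0214). Ighv1-69 was at 1.62, 5.44 and 2.44 FPKM in DSS saline and 38.8, 8.81 and 15.1 FPKM in DSS thymopentin (2.25, SE 0.50, limma adjusted p = 0.0163). For both, the groups did not overlap, but a different library held the highest value, DSS thymopentin 2 for the kappa segment and DSS thymopentin 1 for the heavy chain segment. Ighv1-53 (log2 difference 1.37), Igkv12-89 (1.36), Ighv9-3 (1.23), Ighv1-52 (0.91) and Igkv4-69 (1.58) also rose, with limma adjusted p between 0.0273 and 0.0486.

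Igkv14-111 had levels that lay close together within each DSS group. It was at 15.3, 10.8 and 12.8 FPKM in DSS saline and 32.9, 31.8 and 29.3 FPKM in DSS thymopentin, without overlap, with a log2 difference of 1.2 (SE 0.29, limma adjusted p = 0.0211). In TNBS it was at 13.1, 22.7 and 8.44 FPKM with saline and 5.42, 4.23 and 7.92 FPKM with thymopentin, a log2 difference of -1.13 (SE 0.29, limma adjusted p = 0.127). The segments called lower in DSS were Ighv4-1, at 4.17, 3.21 and 6.61 FPKM with saline and 1.21, 0.738 and 1.86 with thymopentin (-1.31, SE 0.29, limma adjusted p = 0.0162), and Igkv4-90, at 0.942, 3.10 and 7.81 FPKM and 0.583, 0 and 0.441, which passed the minimum through DSS saline alone and is given as a description. The authors' deposited table lists 29 members in DSS, 25 higher and 4 lower, and 21 of these have an FDR under 0.05. It holds 2326 selected genes, and how many of those reach that FDR was not counted.

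**Figure D5:**
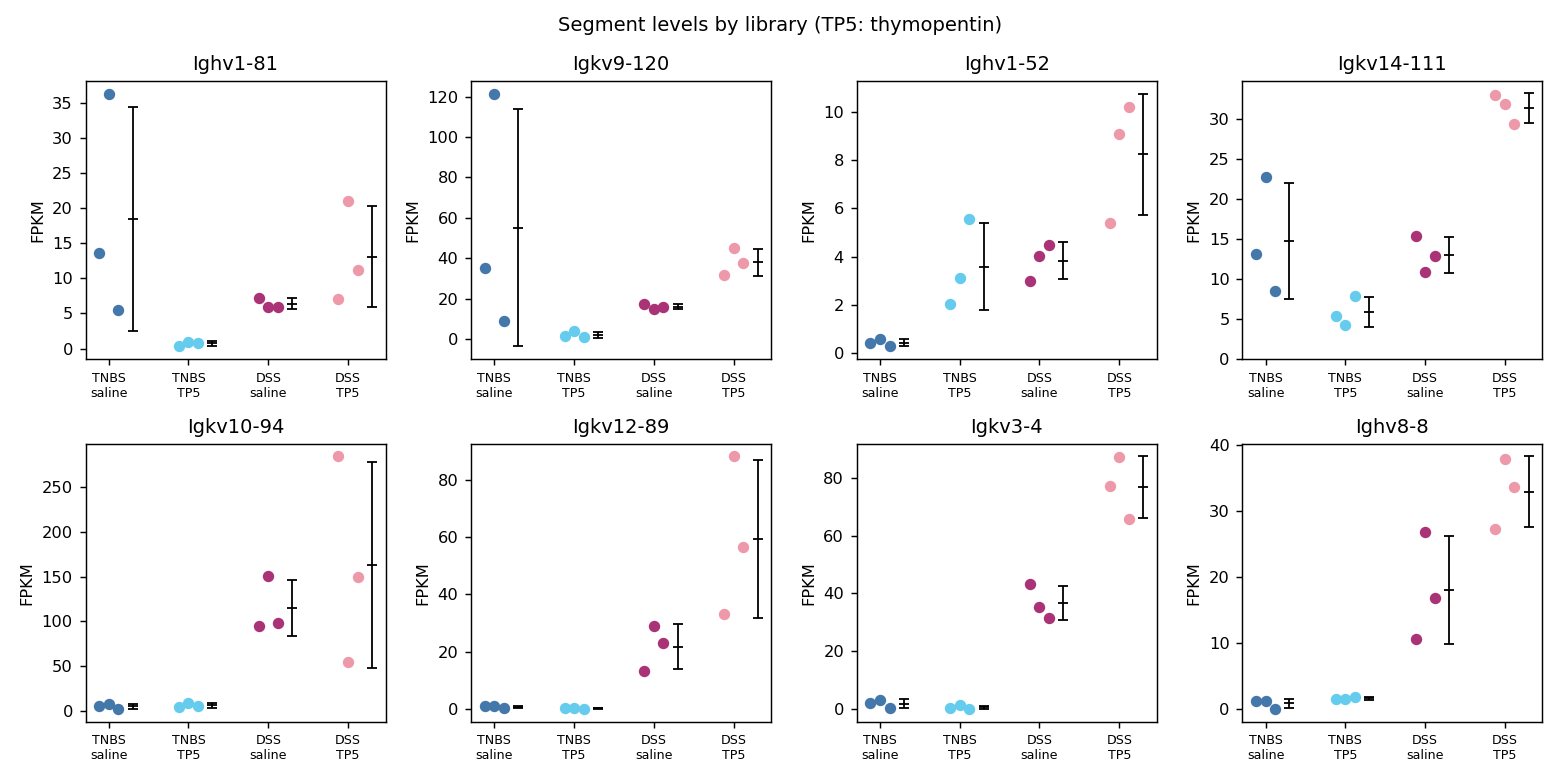
Points give the FPKM of 8 segments in each library of the 4 groups, and the tick and bar beside them give the group mean and its SD (n = 3, TP5 stands for thymopentin, each panel has its own axis). Ighv1-81 and Igkv9-120 are low in TNBS thymopentin, at 0.305 to 1.0 and 1.02 to 3.90 FPKM, Igkv14-111 is highest in DSS thymopentin, at 29.3 to 32.9 FPKM, and the 4 segments of the lower row are low in all 6 TNBS libraries.

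The response to thymopentin differed between the models for 3 of the 144 members (2.08%), where 5.15% of all tested genes were called (2.73% with a higher response in DSS and 2.42% with a lower one), so the share of members was below the background. All 3 had a higher response in DSS than in TNBS. The difference of responses, on the log2 scale, was 4.74 for Igkv9-120 (SE 0.97, limma adjusted p = 0.0257), 3.99 for Ighv1-81 (SE 0.76, limma adjusted p = 0.0205) and 2.35 for Igkv14-111 (SE 0.42, limma adjusted p = 0.0163). With the replicate number as a block 7 members were called, Igkv9-120 and Ighv1-81 among them, while Igkv14-111 had a limma adjusted p of 0.0508. That block also covered DSS, where the samples share only a number. Without TNBS saline 3, the library with the lowest V level, 16 members were called, and 1 was called without TNBS saline 1 or without DSS saline 3. The call of Ighv1-81 was lost without TNBS saline 1, DSS saline 3 or DSS thymopentin 2, with a limma adjusted p of up to 0.0562. The call of Igkv9-120 was lost without any of these, without TNBS thymopentin 1 or 3, or without DSS thymopentin 3, with a limma adjusted p of up to 0.0712. The median difference of responses was 0.39 over the members and 0.11 over all tested genes.

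More members reached 1 FPKM in DSS than in TNBS. Of the 144 members 103 were above 0 in all 12 libraries, and 91 had a mean of at least 1 FPKM in each of the 4 groups. In TNBS 30 to 49 of the 64 Ighv members reached 1 FPKM, against 46 to 57 in DSS, and 38 to 67 of the 77 Igkv members against 65 to 75, so both ranges overlapped. TNBS saline 3, with the lowest V sum, had the fewest at both loci. Among the V rows that were no members, 119 were listed at 0 in all 12 libraries and 85 lay above 0 with a mean under 1 FPKM, and the members held 98.6% of all V segment FPKM. Just above the minimum stood Ighv3-1 (mean 1.02 FPKM), Ighv9-4 (1.02) and Ighv14-1 (1.04), and just below it Ighv1-34 (0.988), Ighv1-31 (0.975) and Igkv14-130 (0.957).

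Reads behind these levels could be recovered for the members in the authors' deposited tables, where 1 FPKM of a V segment corresponded to 11.3 to 20.6 reads with a median of 14.5. A segment at the minimum of 1 FPKM therefore rested on about that many reads per library, and one at 0.1 FPKM on few. The depth of each library in reads is unknown, and the summed FPKM of all genes lay between 384431 and 532510 per library.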

How the data were processed

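RNA of 12 colon libraries was sequenced, 3 in each of 4 groups taken from the sample labels. The authors deposited FPKM values for 55335 genes, used here as the main measurement. They also deposited 2 tables of selected genes, with log2 normalised reads, log2 fold changes, p-values and FDR, the latter 2 used as printed. Tools listed in the submitters' processing notes, without role or order, are STAR 2.5, FastQC, DESeq 1.22.1 and Cuffnorm, and the build is mm9. The gene models are not stated. In the deposited log2 columns, all 2765 (TNBS) and 4527 (DSS) values that stood for 30 reads or fewer were whole numbers, to within 0.01 of a read, once the library size factor was removed. The total read depth is not given, so no interval from depth is printed.

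Differences were tested with limma 3.58.1 (R 4.3.3, intensity trend) on log2(FPKM + 1), which understates the change of low genes, over 13794 genes with a mean of at least 1 FPKM, with 4 group means, 8 residual degrees of freedom and Benjamini-Hochberg adjustment over all tested genes. The 5 comparisons share groups. The fit was tested on simulated data. No exact permutation test is given, because 3 against 3 libraries allow no p under 0.1. Descriptions used Python 3.11.15, pandas 2.3.3, numpy 2.4.6, scipy 1.17.1 and matplotlib 3.10.9.

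The members and lists were chosen with earlier results of these data known. Named segments are those with the highest mean shares (4 Ighv, 4 Igkv, all Iglv), the top segment of each library, up to 4 called members per direction with the smallest p in each comparison, the 3 rows on either side of the minimum, and Ighv1-81 and Ighv1-52. Other segments (Ighv1-54, Ighv1-74, Igkv6-17, Igkv8-19, Igkv9-124, Ighv1-85, Ighv1-61, Ighv9-3, Igkv4-69) were named after their values were seen. Samples with the same replicate number were compared by their deviations from the group means. The correlations were 0.124, 0.268 and 0.476 in TNBS, although saline 2 with thymopentin 1 gave 0.287. The TNBS numbers may thus mark pairs, which the main fit, with group means only, did not use. In DSS the correlations were -0.136, 0.0427 and -0.14, and the samples share only a number. The replicate block, run as an alternative with 4 residual degrees of freedom, covered both models. Alternatives were other pseudocounts (0.1, 0.5), other minimums (0.1, 5), quantile normalization, median-ratio rescaling, array weights, the replicate block and leaving out each library.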

Additional observations from a re-analysis of the deposited data

Results flagged for a closer look

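The response to thymopentin differed between the models in a direct test of the difference (limma interaction, DSS minus TNBS, log2 scale) for 3 of the 144 members (2.08%). Of all tested genes 5.15% were called, so the share of members was below the background. The difference was 4.742 for Igkv9-120 (SE 0.97, adjusted p = 0.0257), 3.991 for Ighv1-81 (SE 0.76, adjusted p = 0.0205) and 2.352 for Igkv14-111 (SE 0.42, adjusted p = 0.0163). In each case all 3 TNBS thymopentin libraries lay below all 3 TNBS saline libraries. All 3 DSS thymopentin libraries lay above all 3 DSS saline libraries for Igkv9-120 and Igkv14-111, while the DSS groups overlapped for Ighv1-81. Of 20 alternatives run, 6 ended the call of Igkv9-120, 3 that of Ighv1-81 and 1 that of Igkv14-111.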

How the results depend on the processing

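No call of a member named by the rule above changed direction under the alternatives run. Direction was not compared for the other called members. Several differences given without a test did change direction when single libraries were left out. On the log2 scale the mean difference of the summed V level in TNBS (thymopentin minus saline) ran from -0.625 to 0.506. The difference in effective number in TNBS ran from -3.98 to 4.31 for Ighv and from -7.28 to 4.45 for Igkv, both turning positive without TNBS thymopentin 2. That in DSS ran from -0.0884 to 4.66 for Ighv. Between the models it ran from -0.076 to 8.22 for Ighv under thymopentin and from -2.08 to 3.82 for Igkv under saline. The lambda share difference ran from -0.886 to 2.0 percentage points between the models under saline and from -2.05 to 0.545 for thymopentin in DSS. Of the counts of called members, that for thymopentin in TNBS moved from 2 to 7 with a pseudocount of 0.1, 5 with 0.5, 4 with median-ratio rescaling and 39 with array weights, whose estimation stopped short of its convergence tolerance. It ran from 0 to 10 when single libraries were left out. The count in DSS moved from 12 to 7 with a minimum mean of 5 FPKM and 21 with array weights, and from 0 to 16 without single libraries. The count for the difference of responses moved from 3 to 7 with a pseudocount of 0.1 and 30 with array weights, and from 1 (without TNBS saline 1 or DSS saline 3) to 16 without single libraries, with 5 without DSS thymopentin 1. The counts between models ran from 38 to 58 under saline and from 45 to 74 under thymopentin. With the replicate block the counts were 3 in TNBS (1 shared), 14 in DSS (10 shared) and 7 for the difference (2 shared). The block also covered DSS, where the samples share only a number, so the DSS and difference counts rest on that number. The block was not run between the models, since the numbers lie within a model. Leaving out a library leaves a group of 2, and the spread is pooled over the groups. The calls of Igkv3-4, Ighv8-8 and Igkv10-94 between the models held under each alternative run. Shared reads between like segments and the unknown depth limit the values of single low segments.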
